A study of Mus musculus with 7 samples.

Results

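In each of 3 immunoprecipitations of the RNA-binding protein HuR from the mouse colon cancer line CT26.WT, the same 195 stretches of the genome carried a listed site. They were found by pooling the sites the authors listed for the immunoprecipitations, joining sites that overlapped by at least 1 base on the same chromosome, and keeping every joined region with at least 1 site from each list. The regions held 588 of the 18072 listed sites and made up 195 of 15379 joined regions (1.27%). A further 2286 joined regions held sites of exactly 2 lists and 12898 held sites of exactly 1. The regions lay in 195 named genes, out of 6277 genes with a site in any list (3.11%).

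The assay was RNA immunoprecipitation sequencing, which sequences the RNA that is recovered together with a protein by means of an antibody. The series holds 7 samples of CT26 cells of wild-type genotype: 3 immunoprecipitations with an antibody against endogenous HuR, 3 with a non-specific IgG, and 1 sample of input RNA, which the design describes as divided in 3, all from untreated cells. The study asked which mRNAs HuR holds, with the synthesis and uptake of fat in mind. The sites were called per HuR sample, and no separate values of IgG or input were used here. Each fold and score compares a HuR sample with a control, and which library served as that control is not stated. It is not stated whether separate cultures were used for the 3 immunoprecipitations. CT26 is a tumour line, the study's question concerns normal gut, and site lists give no expression levels with which to check the cell type.

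HuR, the product of Elavl1, belongs to the ELAV family of RNA-binding proteins and prefers U-rich and AU-rich stretches, which are common in the 3′ ends and introns of mammalian transcripts. It moves between the nucleus and the cytoplasm. It is best known for protecting bound mRNAs from decay, in competition with factors such as those of the Zfp36 family that speed decay at the same kind of element.

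Each site came with a length, a fold enrichment, a score and a false discovery rate (FDR), all of them the authors' values from their peak caller. The fold is a ratio of the signal at the site over a control that the sources used here do not name, and the score grows as the caller's p shrinks. No value has a replicate error and read depth is unknown. Because the regions were chosen by being listed 3 times, their folds, scores and lengths are given as a description and no test was made. The 3 lists contributed 195, 197 and 196 sites to the regions. These sites were 4.13% of list 1 (exact binomial 95% interval 3.58 to 4.74%), 3.66% of list 2 (3.17 to 4.2%) and 2.46% of list 3 (2.13 to 2.82%), the lists holding 4722, 5384 and 7966 sites. The intervals cover counting error only.

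Most of the regions had the same first and last base in every list. In 140 of the 195 regions (71.8%, exact binomial 95% interval 64.9 to 78%) all 3 sites had identical bounds. Among the 2286 regions of exactly 2 lists, 1743 (76.2%) had identical bounds, a condition that asks for a match of 2 sites in place of 3. In the 55 other regions the bounds differed: in 13 of them the sites of lists 2 and 3 matched each other and that of list 1 did not, in 4 those of lists 1 and 3 matched, and in 0 those of lists 1 and 2. Of the 53 such regions with 1 site per list, 16 had the same start in every list and 19 the same end. The regions covered 82063 bases in all, of which 60437 (73.6%) lay under a site of every list.

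Identical bounds were found over a wide range of sizes. How the authors' caller set the bounds of a site is not stated, and whether bounds follow features of the annotation was not tested, so identical bounds are no measure of how precisely HuR binding repeats. The region of Gnb1, a G protein beta subunit gene, spanned 39 bases (chromosome 4, 155618154 to 155618192, mm39) with the same bounds in all lists, and that of the mitochondrial one-carbon gene Mthfd1l spanned 42 bases (chromosome 10, 4038234 to 4038275). Smim7, Marchf8 and Cdk6 were the other regions among the 5 shortest, at 53, 51 and 51 bases. At the other end, Zfp36l2, which encodes an mRNA decay factor of the Zfp36 family, had a region of 3226 bases with identical bounds in all lists (chromosome 17, 84491359 to 84494584). Vamp3, a gene for a vesicle fusion protein, had 1 of 1747 bases (chromosome 4, from 151131757), the phosphatase gene Dusp6 had 1 of 1498 bases (chromosome 10, from 99101854), and Dazap2 had 1 of 1394 bases (chromosome 15, from 100517249).

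A few regions were held together more loosely. Sites of all 3 lists had no base in common in 2 regions, both of them chains in which a site of list 3 bridged the other two. In Hspa1b, an inducible heat shock protein gene, the list 2 site covered bases 35176115 to 35176913 of chromosome 17, the list 3 site 35176897 to 35178060 and the list 1 site 35177185 to 35178021. Kctd7, which encodes a potassium channel tetramerisation domain protein, showed the same pattern over 2307 bases of chromosome 5 (130181072 to 130183378). Hspa1b has a near-identical neighbour, so the source of its reads is uncertain. In Ccdc85c and Dennd6a a list had 2 separate sites inside the region, list 2 in Ccdc85c and lists 2 and 3 in Dennd6a. A region on chromosome 1 (160832268 to 160834275) carried 2 gene names, since the sites of lists 1 and 2 were assigned to Serpinc1, which encodes antithrombin, and that of list 3 to its neighbour Zbtb37. Apart from the 2 chains, the smallest shared stretch was 38 bases, in the ubiquitin ligase gene Marchf8. Just outside the rule lay Lrrc28, Zbtb6 and Yipf6, where a site of the missing list came within 27, 50 and 109 bases of a region of the other two.

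**Figure D1:**
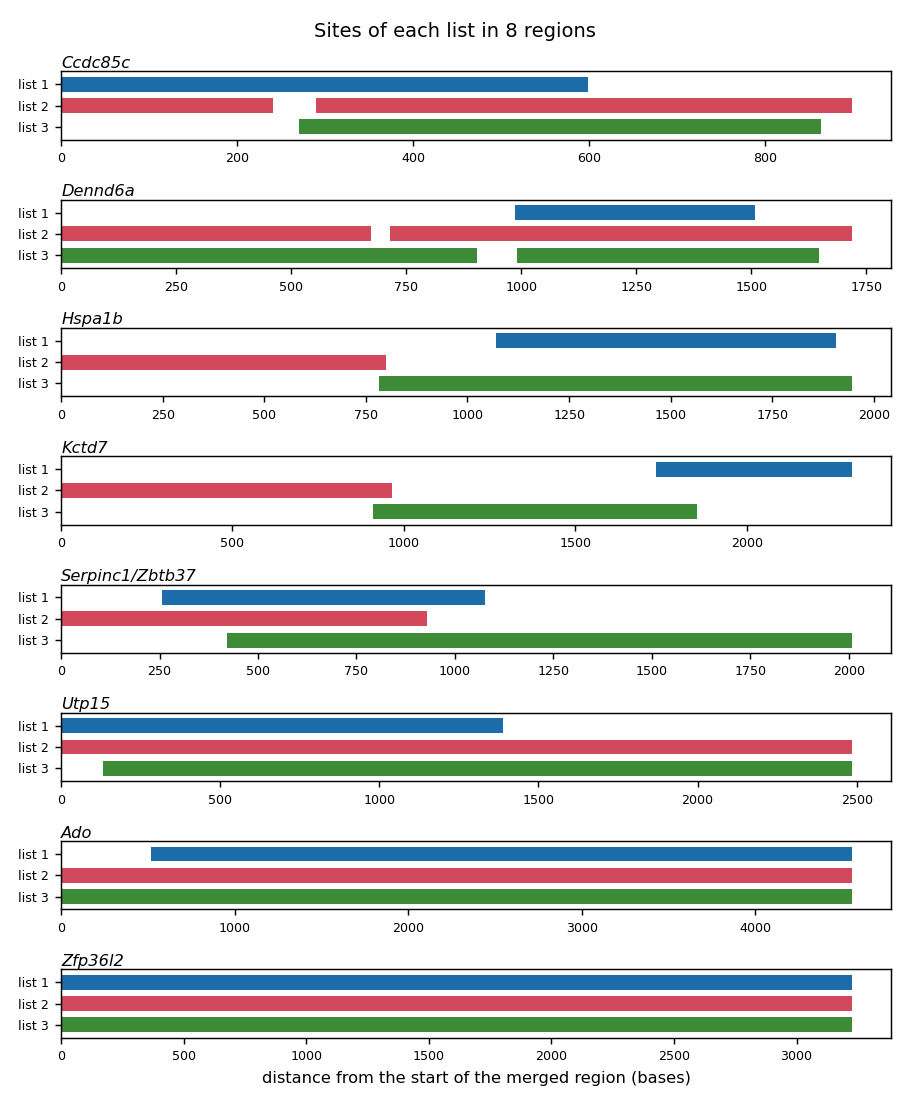
Sites of each list in 8 regions, drawn as bars along the distance in bases from the start of the merged region, with list 1 at the top and list 3 at the bottom of each panel. Hspa1b and Kctd7 are chains with no base common to the lists, Ccdc85c and Dennd6a have 2 sites of a list, and the bars of Zfp36l2 coincide over 3226 bases.

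The median region was 166 bases long, against 162 bases for regions of exactly 2 lists and 158 bases for regions of exactly 1. The upper end differed more: 25 of the 195 regions (12.8%) reached 1000 bases or more, against 9.41% of regions of 2 lists and 5.79% of regions of 1 list. A merged region of several sites is at least as long as each of them, and a long site overlaps others more easily, so length is not independent of the way the regions were chosen. Of the regions, 35 were shorter than 100 bases, 81 had 100 or more but under 200, 40 had 200 or more but under 500, and 14 lay between 500 and 1000 bases. Regions with identical bounds had a median of 138.5 bases and the others 559 bases. Among the 25 longest, 7 had identical bounds, and among the 35 shortest, 31 had. The longest region, 4558 bases on chromosome 10 (67380341 to 67384898), lay in Ado, which encodes a thiol dioxygenase, and 4041 of its bases were common to all lists. Utp15, a gene of the ribosome assembly machinery, followed at 2485 bases after Zfp36l2.

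**Figure D2:**
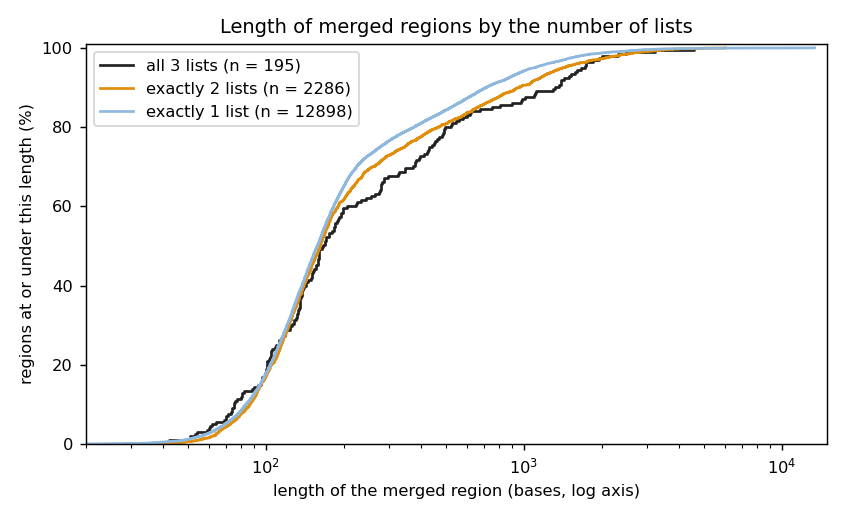
Cumulative share of merged regions (percent) at or under each length (bases, log axis) for regions of all 3 lists, of exactly 2 and of exactly 1. The curves run together up to about the medians of 166, 162 and 158 bases, and the curve of all 3 lists lies lowest around 1000 bases.

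Regions listed 3 times had middling folds and scores. The sites of the regions had median folds of 6.62, 6.32 and 8.97 in lists 1, 2 and 3, against medians over all sites of 7.21, 6.41 and 8.38. Ranked among all sites of their own list, the median site of the regions stood at percentile 41.7, 47.9 and 58.8 by fold and at percentile 51, 55.4 and 51.6 by score, in the order of the lists. The number of regions with a fold above the median of the list was 83, 93 and 112 of 195. In 50 regions the fold was above that median in every list, and in 50 it was below in every list. At or above percentile 90 of their list stood 14, 16 and 19 regions, and Arhgap17 was the 1 region that did so in every list. List 3 gave the highest of the 3 folds in 140 regions, list 1 in 35 and list 2 in 20, beside the higher median of list 3 as a whole.

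**Figure D3:**
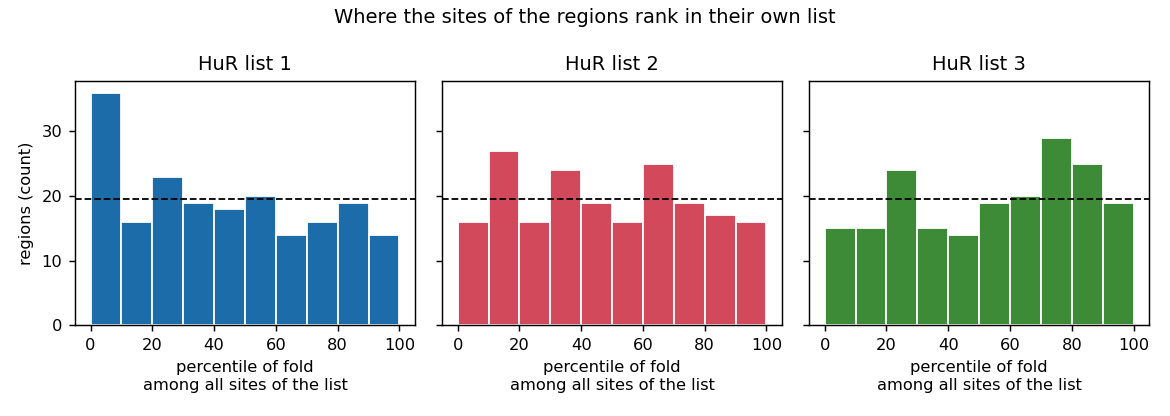
Number of regions by the percentile of their fold among all sites of the same list, in steps of 10, for lists 1, 2 and 3, with a dashed line at 10% of the 195 regions. The counts spread over the whole range, with medians at percentile 41.7, 47.9 and 58.8.

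The regions with the highest fold in the list where they were lowest came from genes of varied function. Tmem263, which encodes a small transmembrane protein, led with folds of 19.1, 10.7 and 12.4 in lists 1, 2 and 3 over 371 bases of chromosome 10 (84938491 to 84938861). Plekhb2, whose product binds phospholipid on recycling endosomes, had 10.6, 10.8 and 12.8 over 90 bases of chromosome 1 (34905222 to 34905311). Ranbp1, a partner of the nuclear transport GTPase Ran, had 11.8, 10.3 and 11 over 410 bases of chromosome 16 (18057648 to 18058057). In these regions every list gave a fold above 10. The calcium channel subunit gene Cacna1a followed with 11.9, 10.01 and 12.4 (chromosome 8, 85307843 to 85307980). Arhgap17, which encodes a GTPase-activating protein, had 12.9, 10.01 and 12.8 (chromosome 7, 122917610 to 122917721). Smc5, a gene of the SMC5/6 complex that guards chromosomes during repair, had 9.64, 10.4 and 19.2. In Smc5 list 3 stood well above the other lists, which was not so in Cacna1a or Arhgap17. The chromatin reader gene Bahcc1 had 9.64, 10.4 and 11.6. The methionine sulfoxide reductase gene Msrb3 had 11.9, 12.01 and 9.21. Shq1, whose product helps to assemble small nucleolar RNA particles, had 9.18, 11.6 and 12.4, and Fam118a had 9.02, 9.18 and 9.86. Of these 10 regions, Smc5 and Bahcc1 were the ones without identical bounds. At the low end, the lowest fold of a region was 2.9, at Ppp4c, a protein phosphatase gene, in list 1.

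Smc5 was the gene with 2 regions. They lay 66.5 kb apart on chromosome 19, at 23183815 to 23184492 and at 23250998 to 23251261. The second region had folds of 8.54, 4.59 and 6.81 with identical bounds, so its fold in list 3 was far under the 19.2 of the first. The files assign the regions to different transcripts of the gene.

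How far the 3 folds of a region lay apart varied from next to nothing to 4.13 times. The ratio of the highest to the lowest fold had a median of 1.61. It was under 1.5 in 82 regions, over 2 in 40 and over 3 in 8. The closest values were those of Il18rap, which encodes a subunit of the interleukin 18 receptor, at 7.5, 7.32 and 7.29. Slc35f5 (7.81, 8.01 and 8.41), the topoisomerase gene Top2b (5.2, 5.62 and 5.3) and the guanine nucleotide exchange factor gene Arhgef11 (5.9, 5.58 and 6.06) were nearly as even, as was Fam118a. The widest ratio was that of Tent2, which encodes a cytoplasmic poly(A) polymerase, with folds of 6.51, 3.82 and 15.8. Ric1, a gene for part of a Rab6 exchange factor, had 4.71, 8.09 and 16.03, and the oxysterol-binding protein gene Osbpl2 had 4.17, 5.31 and 13.1. The ribosome assembly gene Bop1 had 4.51, 2.99 and 9.4, and the integrin gene Itgb5 had 4.41, 2.91 and 8.97. In all 5 of these regions list 3 was the highest, as it was in 140 of the 195 regions. The folds were compared without scaling between the lists, whose medians over all sites were 7.21, 6.41 and 8.38.

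**Figure D4:**
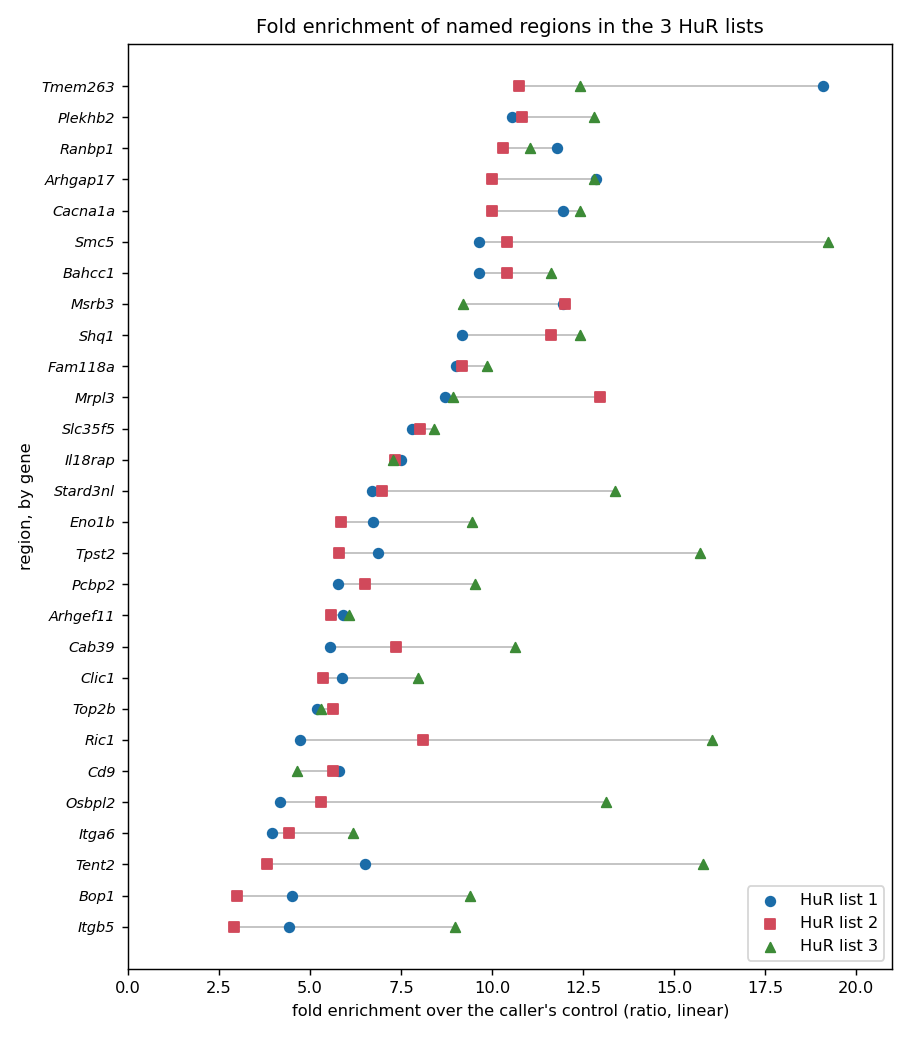
Fold enrichment (ratio, linear axis) of named regions in lists 1, 2 and 3, a row per region ordered by the lowest of its folds, with a grey line from the lowest to the highest. Tmem263 is at the top with folds from 10.7 to 19.1, Itgb5 at the bottom from 2.91, and Tent2 has the widest ratio.

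The score ordered the regions differently from the fold. Eno1b, an intronless copy of the enolase gene Eno1, had scores of 3100, 1178 and 3230, with folds of no more than 6.72, 5.86 and 9.45. Its reads cannot be told apart from those of Eno1 with certainty, and the FDR of its sites, in list order, was 39%, 20.5% and 0%. Clic1, a chloride channel family gene, had scores of 597, 398 and 562 at folds of 5.87, 5.35 and 7.96 (chromosome 17, 35277306 to 35277725). Pcbp2, which encodes a poly(C)-binding protein that acts in mRNA stability and translation, had scores of 291, 483 and 690 at folds of 5.76, 6.52 and 9.54 over 132 bases (chromosome 15, 102387051 to 102387182). The lowest scores listed anywhere were 50.01, 50 and 50.02 in lists 1, 2 and 3, so these genes had scores far above the lowest listed in every list at folds near the medians of the regions. Ranbp1 was high by both measures, with scores of 959, 262 and 292. The lowest FDR of any region was 14.14% in list 1 and 12.34% in list 2. In list 3 it was 0%, the value of Eno1b. Some high scores came with an FDR above the medians over the regions, which were 15.5%, 13% and 9.73% in list order. Ranbp1 had an FDR of 18.9% in list 1, Zfp36l2 had 23.2% in list 1 at a score of 1515, and Clic1 had 16.3%, 14.01% and 15.6%. Pcbp2 had 14.3%, 14.4% and 17.9%, below the median in list 1 and above it in the others. The tetraspanin gene Cd9 had scores of 336, 237 and 234 over 75 bases, at folds of 5.8, 5.64 and 4.63. The integrin gene Itga6 and the mitochondrial ribosome gene Mrpl3 had lowest scores of 136 and 123, Stard3nl, a gene for a protein of membrane contact sites, had 122, the kinase adaptor gene Cab39 had 118, and the tyrosylprotein sulfotransferase gene Tpst2 had 116.

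Many other regions had a score not far above the lowest listed in at least 1 list. A score of 70 was reached in all 3 lists by 66 regions, in 2 lists by 89, in 1 list by 32 and in none by 8. The regions under it numbered 58, 59 and 60 in lists 1, 2 and 3. Tmem263, first by fold, had a score of 51.4 in list 3, and Msrb3 had 50.2 there. Among the 8 regions under 70 in every list were Top2b (55.72, 63.06 and 60.75), Acot7 (59.57, 50.17 and 67.55) and Kif1b (62.7, 59.24 and 53.65). Of the regions of the 4 genes in the lipid lists, those of Hadh and Scarb1 were among the 66 and those of Agpat2 and Decr1 were not.

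Part of the folds lay on a ladder of fixed steps. In list 1 the value 0.459 and in lists 2 and 3 the value 0.4 had whole multiples that held more folds of the list than any other step between 0.3 and 0.6. In lists 1, 2 and 3, 25.6%, 25.1% and 26.2% of the regions had a fold on such a multiple, against 37.8%, 32.6% and 22.8% of all sites. The fold was on the ladder in all 3 lists for 38 regions and in no list for 128. Among the 50, 49 and 51 regions with a fold on a multiple in lists 1, 2 and 3, the median multiple was 19, 20 and 25. Arhgap17, Cacna1a, Plekhb2, Shq1, Msrb3 and Bahcc1 of the leading regions were on it in every list, as was the first region of Smc5, while Tmem263 was on it in 1 list and Ranbp1 and Fam118a in none. Folds on the ladder can take few values, and equal folds occurred at different genes, such as the 10.01 of Cacna1a and Arhgap17 in list 2. How often folds were equal was not counted. The steps were picked for holding the most folds, and the shares that other steps held are not given here.

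Genes that held a region also had sites elsewhere. For 32 regions the gene had no other site in any list, and the median number of other sites was 2. For 57 regions there was in the gene at least 1 further site in each of the lists, and for 74 regions the gene also held a region of exactly 2 lists. Hectd4, which encodes a ubiquitin ligase, had the most other sites, with 3, 7 and 9 in lists 1, 2 and 3. The region was the highest fold of its gene in all 3 lists in 81 cases, in 2 lists in 59, in 1 list in 35 and in none in 20. These counts include regions with no other site of the gene to compare with. Over the 57 regions with a further site in each list, the region was the highest in all 3 lists in 6, in 2 lists in 12, in 1 list in 19 and in none in 20. Genes whose region stood alone included Zfp36l2, Dusp6, Rheb, Marcks, Tmem263, Itgb5, Bop1 and Mrpl13. Of the 1248 genes with a site in all lists, 193 (15.5%) held a region and 1055 had no place where sites of all 3 lists joined. The median number of sites per gene, over all lists, was 5 in genes with a region and 5 in these 1055.

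The functions of the genes were counted over 31 lists, each read against the background of 3.11% (195 of 6277 genes). Of the 1248 genes with a site in all 3 HuR lists, 193 (15.5%) held a region. On that base some shares changed sides. Cell cycle genes went from 2.38% to 1 of 4 (25%) and the mitochondrial list from 2.3% to 2 of 11 (18.2%). Chromatin modifiers went from 3.82% to 5 of 39 (12.8%) and centrosome and cilium genes from 3.51% to 4 of 33 (12.1%). Members of at least 1 list made up 68 of the 195 genes (34.9%), against 31.2% of all genes with a site. Genes are not replicates and no list was tested. Many lists were drawn from gene name stems and hold some genes that act elsewhere.

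The lipid lists held 4 genes with a region. Of 15 triglyceride synthesis genes with a site 1 held a region (6.67%), Agpat2, the acyltransferase gene of phosphatidic acid synthesis. Of 10 fat absorption genes 1 did (10%), Scarb1, a receptor for high-density lipoprotein. Agpat2 had folds of 5.64, 4.54 and 10.8, and Scarb1 had 3.36, 3.31 and 7.23, with list 3 the highest in both. Of 12 genes of lipolysis and fatty acid oxidation 2 held a region (16.7%): Hadh, a beta-oxidation dehydrogenase gene, with folds of 6.92, 4.68 and 11.9, and Decr1, whose product handles unsaturated fatty acids, with folds of 5.54, 5.78 and 9.87 (chromosome 4, 15918494 to 15919094). Sterol and fatty acid synthesis had 0 of 14, of which 1 had a site in every HuR list. Beside the background of 3.11%, 3 of these 4 shares were higher and 1 was lower, each resting on 0 to 2 genes. Outside these lists, the acyl-CoA thioesterase gene Acot7 had folds of 5.73, 7.32 and 10.5, the sphingolipid gene Kdsr 5.41, 5.79 and 5.99, and Gpd1l, a glycerol-3-phosphate dehydrogenase relative, 4.44, 4.33 and 9.08. These 3 genes were picked after their values were seen.

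Among RNA-binding stability factors 2 of 20 genes with a site held a region, Zfp36l2 and Pcbp2. Zfp36l2 had folds of 9.19, 5.93 and 9.97 and scores of 1515, 131 and 108. The mRNA of HuR itself held no region, and of the 18 reported HuR targets with a site 0 did. Of these 18 genes, 2 had a site in every HuR list, so few of them could hold a region. Of 76 genes of mRNA decay, silencing and methylation 2 held a region: Cnot10, a subunit gene of the main deadenylase complex, with folds of 6.12, 5.53 and 7.65, and Mettl14, a subunit gene of the enzyme that methylates adenosine in mRNA, with 6.65, 4.78 and 8.72. Patl1, a decapping factor gene that the list does not hold, had 7.42, 6.47 and 8.19. Splicing factors and RNA helicases had 2 of 113, the helicase gene Ddx18 (3.73, 5.27 and 11.2) and Rbm26 (5.32, 5.78 and 7.82). Translation factors and tRNA synthetases had 0 of 71, of which 7 had a site in every HuR list. Nuclear pore and transport genes had 1 of 45, Ranbp1.

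Ubiquitin enzymes and ligases gave more genes than any other of the 31 lists, 10 of 180 with a site (5.56%). Ube2h and Ube2q2 encode ubiquitin-conjugating enzymes. Ube2h had folds of 16.5, 7.26 and 9.43 over 488 bases (chromosome 6, 30304051 to 30304538) and Ube2q2 had 7.26, 3.9 and 6.82. Hectd4, a gene for a large ligase, had 15.2, 7.21 and 14.8 (chromosome 5, 121358282 to 121358720). Itch, a ligase gene of the Nedd4 family known for its role in immune tolerance, had 4.98, 10.8 and 6.5 (chromosome 2, 155059911 to 155060007), so that list 2 was the highest there. Rnf8, a ligase gene of the DNA damage response, had 3.78, 5.02 and 8.87, and Marchf8 had 6.01, 7.3 and 12.8. The F-box gene Fbxo38 had 11.2, 7.31 and 9.48, and Kctd7 had 6.62, 8.01 and 8.41. Fbxo44 and Rnf187 were the others. Deubiquitinases and SUMO proteases had 1 of 54, Usp28.

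Of 176 genes of Rab proteins, sorting and endosomes 8 held a region (4.55%). Rab40c, a Rab-like gene whose product works with a cullin ligase, had folds of 7.81, 8.01 and 10.4 (chromosome 17, 26103554 to 26103776). The sorting nexin gene Snx7 had 9.97, 7.15 and 10.5 (chromosome 3, 117640163 to 117640357), and Rabep2, an effector gene of endosome fusion, had 4.52, 8.27 and 8.85. Washc2 and Washc5 encode subunits of the WASH complex, which builds actin on endosomes. Their folds were low, at 4.45, 4.58 and 5.27 for Washc2 and at 3.74, 3.45 and 4.97 for Washc5. The others were Rab28, Dennd6a and Vamp3. Transport between the endoplasmic reticulum and the Golgi had 1 of 71, Cog2, a gene of the Golgi tethering complex (6.43, 8.81 and 12.4). Motors had 2 of 52, Kif1b (5.93, 4.06 and 5.98) and Kif20b (6.41, 7.61 and 7.99).

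Genes of DNA damage response and repair with a region included Smc5 and Usp28, a deubiquitinase gene of checkpoint signalling, which had folds of 16.5, 8.41 and 9.21 over 71 bases (chromosome 9, 48938119 to 48938189). List 1 was the highest in Usp28 and list 3 in the first region of Smc5. Outside that list, the Fanconi anaemia gene Fance had 13.3, 7.21 and 10.01, and the helicase gene Mcm8 had 10.8, 10.9 and 8.43. Centrosome and cilium genes gave 4 of 114: Cep164, a gene of the appendages that dock the mother centriole (8.72, 9.21 and 10.01), Cep120 (7.65, 9.61 and 10.3), Cep295nl (7.35, 7.33 and 8.62) and Ttc8, a subunit gene of the complex that carries cargo in cilia (7.06, 5.35 and 8.21). Cell cycle genes gave 1 of 42, Cdk6, which encodes a kinase of the start of the cycle, over 51 bases of chromosome 5 (3565454 to 3565504).

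Of nutrient sensing genes 2 of 33 held a region. Rheb, which encodes the GTPase that switches on mTORC1, had folds of 5.34, 7.34 and 9.04 with scores of 53.8, 139 and 222, and the ribosomal S6 kinase gene Rps6ka2 was the other. Phosphoinositide enzymes gave 3 of 46: Synj2, an inositol phosphatase gene (10.1, 8.43 and 10.9), Pik3c3, the gene of the kinase that starts autophagy membranes (6.36, 5.81 and 9.31), and Mtmr9 (6.45, 5.15 and 7.62). The autophagy gene Atg5 had 6.19, 5.43 and 8.12. In the MAP kinase cascade Dusp6, whose product switches off ERK, was 1 of 55, with folds of 3.26, 4.11 and 7.02 and scores of 67.01, 132 and 417. Interferon, MHC and innate immune genes gave 3 of 51: Stat3, a gene for a transcription factor downstream of cytokines (8.03, 8.71 and 6.55), the RNA sensor gene Ifih1 (9.58, 4.58 and 9.85), and H2-Q2, whose near-identical relatives leave the source of its reads uncertain.

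Chromatin modifiers gave 5 of 131, among them the demethylase gene Kdm1b (6.23, 6.26 and 7.88) and the bromodomain gene Brd3 (8.19, 4.48 and 7.66). Prdm10 had 13.3, 6.01 and 9.21, and Phf6 had 8.7, 5.69 and 10.8. Setd3, counted in that list by its name, encodes an enzyme that methylates actin. Zinc finger names gave 4 of 194 (2.06%), among them Zmym2 (7.79, 6.27 and 11.1), Zfp1 (5.26, 9.54 and 6.29) and the RNA-binding Zfp36l2. The remaining gene, Zbtb37, was named in its region at the site of list 3 alone. Of the 194 genes, 21 had a site in every HuR list. With Zbtb37 counted, the share on that base was 19%, against 15.5% over all genes. Solute carriers gave 3 of 120, Slc35f5, Slc31a2 (8.26, 9.61 and 7.14) and Slc35d2 (5.46, 5.59 and 12.4). Adhesion gave 3 of 72, the integrin genes Itga6 and Itgb5 and, by its name stem only, the endosome gene Plekhb2. Glycosylation gave 3 of 71, of which Pomt2 (8.26, 8.41 and 10.01) and Gfpt1 (6.58, 8.41 and 10.4) act in sugar transfer and hexosamine supply, while Ostf1 matched by its name stem and acts elsewhere. The mitochondrial list gave 2 of 87, Mrpl3 and Mrpl13. Abundant housekeeping genes had 0 of 7, epithelial and mesenchymal markers 0 of 8 and markers of other cell types 0 of 2. A site in every HuR list was found for 2 of these housekeeping genes and for 0 genes of either marker list. The counts for the markers therefore carry no information.

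The annotation in the files gave further groups, singled out here after their counts were seen. The term for oxidation and reduction covered 16 of the 162 annotated genes with a region (9.88%), against 3.94% of the 5222 annotated genes with a site. Catalase, encoded by Cat, had folds of 7.81, 7.61 and 9.21, and the mitochondrial peroxidase gene Prdx3 had 4.46, 6.32 and 9.28. The aldehyde oxidase gene Aox1 had 10.7, 9.61 and 8.81, the biliverdin reductase gene Blvra had 4.91, 8.4 and 10.8, and the electron transfer gene Etfb had 3.76, 3.32 and 3.71. Msrb3, Hadh, Decr1, Ado, Kdsr and the folate genes Mthfd1 and Mthfd1l are in the same group. Small GTPase signalling covered 8 genes (4.94% against 1.74%), among them Rheb, Mras, Rab28 and Dock8. Of KEGG pathways, PI3K-Akt signalling covered 7 of 80 annotated genes (8.75% against 5.31%), insulin resistance 5 (6.25% against 2.24%) and the phagosome 5 (6.25% against 2.11%). The broad class of metabolic pathways ran the other way, with 12 genes (15% against 21.2%). Term shares were not computed over genes with a site in every HuR list, the base on which some list shares changed sides.

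The regions were found on all autosomes and on X. Chromosome 10 held the most, 16 (8.21%, against 4.75% of all merged regions), followed by chromosomes 2 and 9 with 15 each. Relative to all merged regions the share was highest on chromosome 19, where 12 of 499 were regions of all lists (2.4%), then on chromosome 10 (2.19%), chromosome 17 (2.09%) and chromosome 13 (1.97%). It was lowest on chromosome 16, with 3 of 550 (0.545%), on X, with 3 of 476 (0.63%), and on chromosome 11, with 7 of 1087 (0.644%). No chance level was computed for these shares, and counts of 3 to 16 regions carry wide counting error. The 12 on chromosome 19 came from 11 genes, among them Smc5, Dock8, Kif20b, Uhrf2, Ric1 and Prdx3. The regions were scattered along the chromosomes, with a median gap of 6.35 Mb between neighbours. In 4 pairs the gap was at most 100 kb: Mras and Armc8 on chromosome 9 (42.6 kb), the 2 regions of Smc5, Tmem263 and Cry1 on chromosome 10 (81.3 kb), and Hspa1b and Clic1 on chromosome 17 (99.2 kb).

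**Figure D5:**
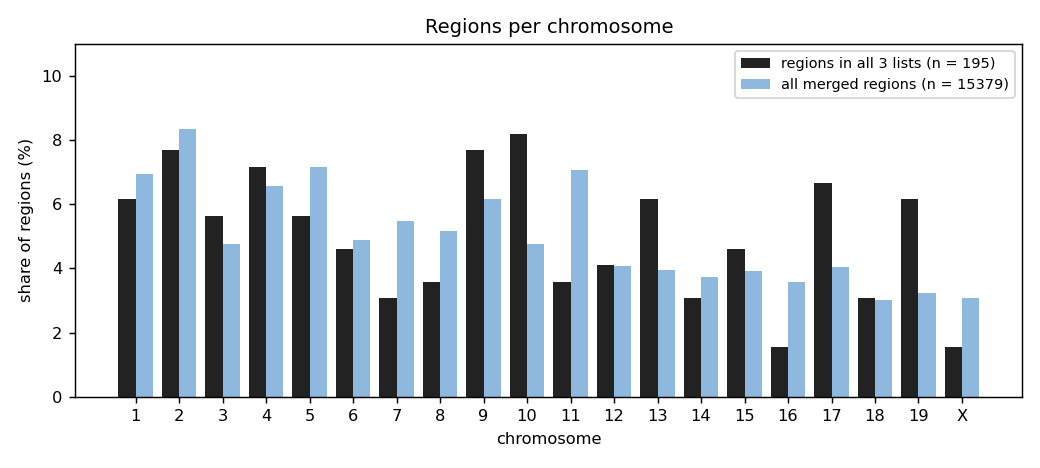
Share of regions on each chromosome (percent) for the 195 regions in all 3 lists, dark bars, and for all 15379 merged regions, light bars. Among other chromosomes, the dark bar is above the light one on chromosomes 10, 13, 17 and 19 and below it on chromosomes 7, 11, 16 and X.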

How the data were processed

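The data were site lists of 3 HuR immunoprecipitations from CT26 cells; the lists were tied to samples by their names. Per the submitters' processing notes, FastQC, cutadapt 1.9.3, STAR and HISAT2 2.0.4 were used, in no stated order, on mm39. The peak IDs carry the MACS prefix; its version, settings and control: not given in the sources used here. The authors deposited per site a fold (a ratio over control), a score (minus 10 times the log10 of p, per the file headers) and an FDR, read here as percent. Positions in exons and introns and the sequences of the regions were not analysed here.

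Sites, taken as starting from 0 with an open end, were merged with Python 3.11.15 and pandas 2.3.3, and starts are printed counted from 1. A region with several sites of a list took the highest fold. Merging was tested on simulated sites. Some process terms were not used here. Fold steps were sought with a tolerance of 0.0055. The regions, the gene lists and the rules were chosen with earlier results of these data known. Genes were named by rule: the highest lowest fold or score, widest and narrowest fold ratio, longest and shortest, several regions or names, the edge of the rule, and up to 4 per list; others were picked after seeing values. No test was made and depth is unknown. The authors' own joined list and symbol list were not used, and IgG and input were left out.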

Additional observations from a re-analysis of the deposited data

How the results depend on the processing

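No paired analysis was possible because the tables used give sites of the HuR samples alone, with no values per IgG sample to pair them with. With a score of at least 70, 66 regions in 66 genes remained in all lists, with a median length of 184.5 bases, against 166. A fold of at least 5 left 129 regions. Lists of equal length, the 4722 sites of highest score in each, left 107. These settings offer fewer sites to overlap. The length of the common bases had a median of 160 bases. Without any 1 of the immunoprecipitations there were 779 to 1276 regions and 700 to 1101 genes, because 2 lists ask less than 3. A base common to all lists (193 regions), a common stretch of at least 50% of the region (181 regions), and the omission of Eno1b, Hspa1b and H2-Q2 (192 regions, an alternative added after seeing the data) stayed within 1.5 times of 195. The share with identical bounds was 71.2% with the stricter score and 72.8% with a tolerance of 10 bases. With the stricter score the median folds were 6.87, 6.4 and 9.11 in lists 1, 2 and 3. With genes in place of merged regions as the background, the share on chromosome 16 was 0.439 times and that on chromosome 19 was 1.86 times that of the background, against 0.43 and 1.9 times. Unknown depth limits any statement that a region is not shared.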
